A study of Mus musculus with 165 samples.

Results

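Isg15, Ifit1, Ifit3, Rsad2, Oasl2, Usp18, Bst2 and Stat2, genes that respond to interferon, were followed through both differentiation courses of the study. These 8 genes were taken by symbol from the 36255 genes of the table, and all 8 were found. The cells were PUER cells, a myeloid progenitor line derived from Spi1-/- mice. The line has no PU.1 of its own and carries a fusion of PU.1 with the hormone-responsive part of the estrogen receptor, which 4-hydroxy-tamoxifen (OHT) switches on. Every group is this same line. Undifferentiated cells in IL3 (5 ng/mL, 3 libraries) were either given 200 nM OHT in IL3, the macrophage course named IL3-OHT, or moved to GCSF (10 ng/mL) for 48h and then given 100 nM OHT, the neutrophil course named GCSF-OHT. GCSF 0h denotes cells after the 48h in GCSF and before OHT (3 libraries), although the titles of these libraries name OHT, because the treatment protocol sets 0h before OHT was given. Polyadenylated RNA was sequenced at 27 times, the first at 1h and the last at 168h of OHT, in 81 IL3-OHT and 78 GCSF-OHT libraries. Groups held 3 libraries, except GCSF-OHT 96h, 112h and 152h with 2.

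Cytokine and OHT dose changed together between the courses and cannot be told apart. Each time point was grown in a plate of its own, so that time point and plate cannot be told apart either, and p-values measure the spread between wells. Cells were detached with trypsin at all time points after 24h, and part of the medium was replaced, with fresh OHT, at 40h, 88h and 136h. The 6 libraries of 120h carry another library name prefix than the rest, and the study set IL3-OHT 96h and 144h aside as outliers. These 2 groups were left out of the IL3 averages over time given here. Libraries held 14600246 to 33147945 reads on genes, with a median of 21960878, and 3 reads corresponded to a normalized count of 1.96 to 5.51. The 5 general myeloid marker genes summed to a normalized count of at least 124532 in every library. The 5 macrophage markers summed to 18.4 to 23.6 in undifferentiated cells, 15.9 to 491 in IL3-OHT and 13.97 to 531 in GCSF-OHT. Among these 5, the complement genes C1qa and C1qb had at most 3 reads in every library of all groups.

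Interferon signalling works as follows. Type I interferons bind a receptor at the cell surface whose Janus kinases phosphorylate STAT proteins. Together with IRF9, STAT proteins form a complex that binds the interferon-stimulated response element (ISRE) in the promoters of target genes. Among the genes followed here, Stat2 encodes a subunit of that complex. Isg15 encodes a ubiquitin-like protein that is attached to other proteins. Ifit1 and Ifit3 encode proteins that bind viral RNA, Rsad2 encodes viperin, which makes a chain-terminating nucleotide, Oasl2 encodes an oligoadenylate synthetase-like protein, and Bst2 encodes tetherin, which holds virions at the cell surface. Usp18 encodes a protease that removes ISG15 from proteins and also dampens signalling at the interferon receptor. Myeloid cells carry many of these genes at a low resting level without infection.

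In GRCm38 (GENCODE M21), Ifit3 (chr19:34583531-34588731) and Ifit1 (chr19:34640871-34650009) lie close together on the plus strand, with the near copy Ifit3b (chr19:34607970-34613401) between them. Isg15 lies at chr4:156199424-156200818, Rsad2 at chr12:26442746-26456452 and Bst2 at chr8:71534255-71537456, all on the minus strand. Oasl2 (chr5:114896936-114912234), Usp18 (chr6:121245906-121270917) and Stat2 (chr10:128270559-128292849) are on the plus strand, and the annotated gene Gm44148 overlaps Usp18, so that reads of the overlap could count for either.

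RefSeq promoters (GRCm38.p6, 250 bases before to 50 after the start of the gene) were available for 7 of the 8 genes, and are shown here because the ISRE is the element the family shares. The letters GAAANNGAAA, on either strand, were found in 6 of the 7, against 3.44% of all 32851 promoters of that length. In the stretches of 60 bases below, given 5′ to 3′ on the strand of the gene, capitals mark every match, and neighbouring matches may overlap.
Isg15 (minus strand, chr4:156200856-156200915): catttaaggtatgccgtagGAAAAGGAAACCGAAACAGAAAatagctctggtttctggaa
Ifit1 (plus strand, chr19:34640769-34640828): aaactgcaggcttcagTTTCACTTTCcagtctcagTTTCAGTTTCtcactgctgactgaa
Ifit3 (plus strand, chr19:34583365-34583424): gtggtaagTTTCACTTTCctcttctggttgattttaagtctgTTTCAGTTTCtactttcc
Rsad2 (minus strand, chr12:26456538-26456597): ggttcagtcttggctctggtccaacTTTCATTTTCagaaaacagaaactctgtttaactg
Bst2 (minus strand, chr8:71537565-71537624): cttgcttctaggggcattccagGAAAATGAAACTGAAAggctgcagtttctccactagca
Stat2 (plus strand, chr10:128270251-128270310): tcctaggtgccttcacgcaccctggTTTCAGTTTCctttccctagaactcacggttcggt

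Isg15 held 3 overlapping matches between 78 and 57 bases before its start. Ifit1 and Ifit3 each held 2 separate matches, and Bst2 held 2 overlapping ones. Rsad2 and Stat2 held 1 match each. The Oasl2 promoter held none within this window. The letters TTCNNNGAA of the gamma-activated site, which STAT dimers bind, were found in Bst2 alone, 136 to 128 bases before its start and overlapping the first ISRE match, against 8.30% of all promoters. These are matches of letters, not measured binding.

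In undifferentiated cells the 8 genes spanned a wide range of levels. Per kilobase of merged exons, Bst2 had a mean normalized count of 812 ± 22.3 (SD, n = 3) and Stat2 had 170.0 ± 16.2. Isg15 followed at 17.9 ± 1.94 and Usp18 at 4.08 ± 0.953 on the same scale. Ifit3 (1.43 ± 1.47), Ifit1 (0.769 ± 0.614) and Rsad2 (0.761 ± 0.939) did not differ beyond their spread in this order, and Oasl2 had no read in any undifferentiated library. At GCSF-OHT 168h, Bst2 (406 ± 17.1 per kilobase) and Stat2 (309 ± 7.37) were still the highest. Isg15 (117.8 ± 16.6) and Ifit1 (111.9 ± 35.6) then lay within their spread of each other, ahead of Usp18 (50.6 ± 10.3) and Ifit3 (37.2 ± 11.7), whose spreads overlapped. Oasl2 (2.71 ± 1.204) and Rsad2 (2.13 ± 0.297) were lowest and also not apart.

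**Figure D1:**
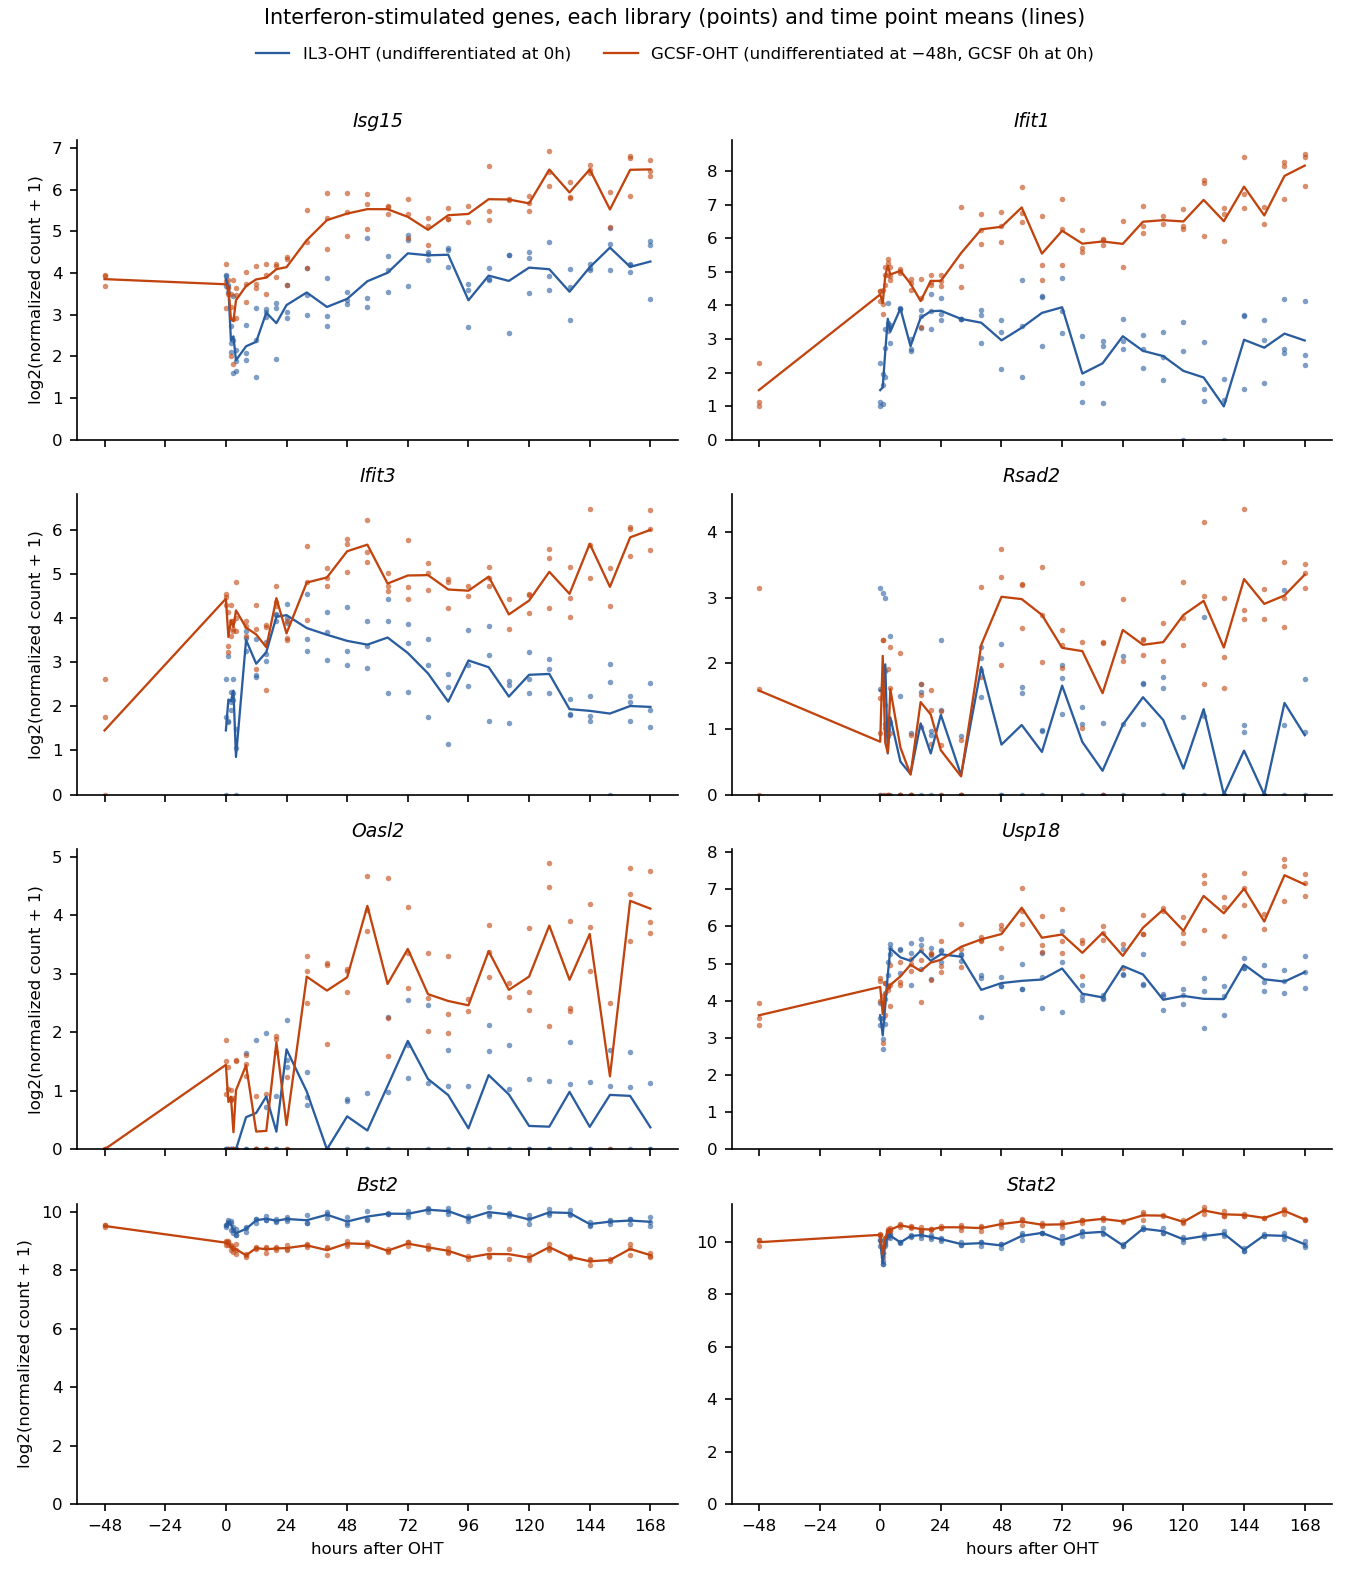
The log2 of the normalized count plus 1 (vertical axis) of each of the 8 genes is plotted against hours after OHT, with a point for each library, a line through the time point means, IL3-OHT in blue and GCSF-OHT in red. The GCSF-OHT lines of Isg15, Ifit1 and Usp18 climb to time point means of 91.9, 297 and 174.8 normalized counts at their highest, whereas Bst2 is lower in GCSF-OHT throughout, and Rsad2 and Oasl2 lie close to the limit of a few reads.

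The first comparison was of GCSF 0h with undifferentiated cells, before PU.1 was activated. Ifit1, Ifit3 and Oasl2 were called higher and no member was called lower, while Bst2 had lower counts in all 3 libraries by less than the fold limit. By the test used throughout, limma on log2(normalized count + 1) across 17439 genes, a gene was called at a Benjamini-Hochberg adjusted p under 0.05 and a log2 fold change over 0.58 in size. Thus 3 of 8 members were called higher, where 13.0% of all tested genes were. Ifit1 had normalized counts of 3.93, 1.02 and 1.18 in the undifferentiated libraries and of 16.6, 20.4 and 20.503 at GCSF 0h. The groups did not overlap, and the log2 fold change was 2.85 ± 0.57 (SE, adjusted p = 5.83e-06). Ifit3 went from 0, 5.11 and 2.36 to 22.2, 21.2 and 18.6, again without overlap, by 2.98 ± 0.49 on the log2 scale (adjusted p = 6.88e-08). These folds rest on few reads, 5 for Ifit1 and 7 for Ifit3 over the 3 undifferentiated libraries. The ratio of summed reads was 9.93 for Ifit1 (95% exact interval 4.04 to 31.6) and 7.65 for Ifit3 (3.52 to 19.8), where intervals cover counting error only. Oasl2 had 6 reads over the 3 GCSF libraries against none, a mean of 1.81 that lies under the limit of 3 reads in a library, so no fold is given (adjusted p = 0.0304). Its call was lost by DESeq2 on whole reads (adjusted p = 0.0594), with a pseudocount of 5 (0.192) and without the libraries of any 1 replicate number (0.0523 without 1, 0.152 without 2 and 0.1003 without 3).

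The other 5 members were not called between GCSF 0h and undifferentiated cells. Isg15 had 17.6, 7.97 and 13.0 at GCSF 0h against 14.4, 14.3 and 11.8, and the groups overlapped. Usp18 had a log2 fold change of 0.76 ± 0.37 (adjusted p = 0.0684), and Stat2 one of 0.28 ± 0.07. Bst2 was at 496, 466 and 518 against 742, 748 and 710.2, without overlap, but its log2 fold change of -0.57 ± 0.08 (adjusted p = 1.29e-09) stayed just inside the fold limit. It passed the limit with upper-quartile scaling (-0.60) and without the libraries numbered 3 (-0.63).

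**Figure D2:**
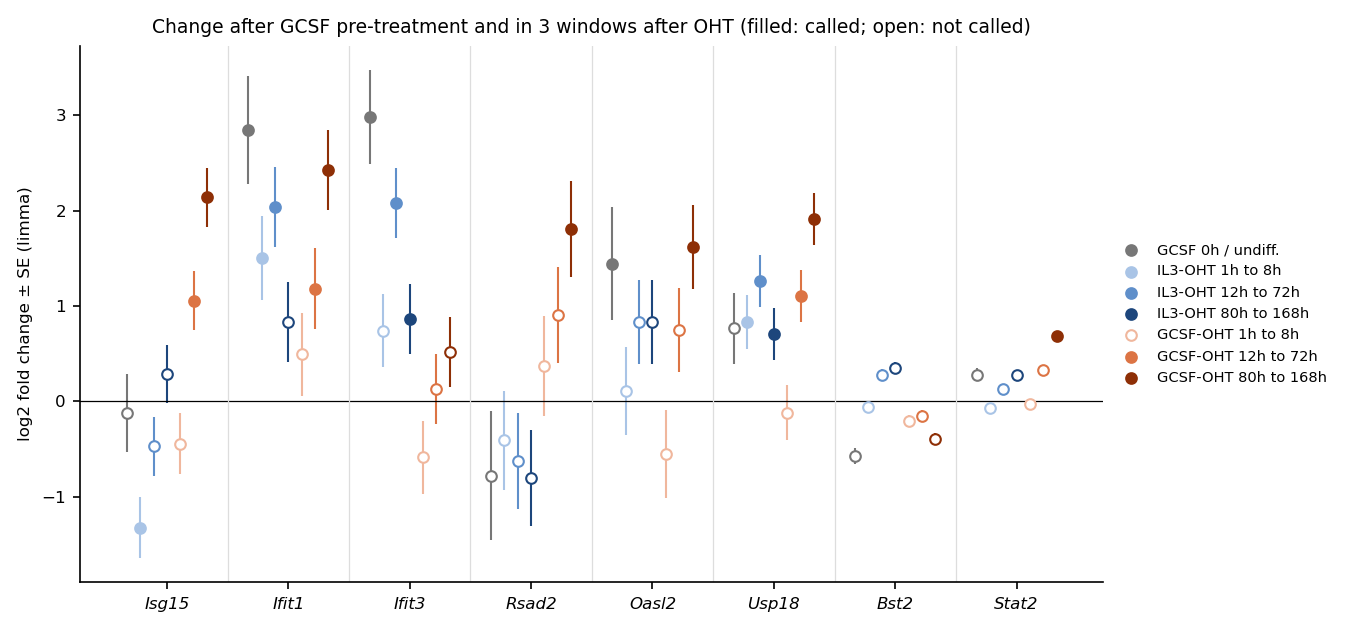
Log2 fold changes with their SE from limma (vertical axis) are shown for the 8 genes after 48h in GCSF (grey), in 3 windows of IL3-OHT against undifferentiated cells (blue) and in 3 windows of GCSF-OHT against GCSF 0h (red), filled where called. In the 80h to 168h window 6 of the 8 red points are filled, and in the 1h to 8h window none is.

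In IL3, the macrophage course, the members did not move as a set. Usp18 and Ifit1 rose within hours of OHT and Ifit3 by 8h, Isg15 fell early, and Rsad2, Oasl2, Bst2 and Stat2 were not called in any of the 3 windows of time. Averaged over 1h to 8h against undifferentiated cells, 2 of 8 members were called higher (Ifit1 1.504 ± 0.44, Usp18 0.83 ± 0.29 on the log2 scale), against 4.46% of all genes, and 1 lower (Isg15, -1.32 ± 0.32, adjusted p = 0.000264), against 7.96%. Over 12h to 72h the higher members were Ifit1 (2.04 ± 0.42), Ifit3 (2.08 ± 0.37) and Usp18 (1.26 ± 0.27), 3 of 8 against 11.4% of all genes. Over 80h to 168h they were Ifit3 (0.86 ± 0.37, adjusted p = 0.0342) and Usp18 (0.70 ± 0.27, adjusted p = 0.0202), 2 of 8 against 11.6%, and no member was called lower in either of these windows. Ifit1 and Ifit3 had undifferentiated means of 2.04 and 2.49, under 3 reads in a library. The size of their folds in IL3 therefore depends on the pseudocount. With a pseudocount of 5, Ifit3 (0.37) and Usp18 (0.56) were not called over 80h to 168h. The weaker of these calls also depended on the test. By edgeR on whole reads neither Ifit1 (adjusted p = 0.0901) nor Usp18 (0.0520) was called over 1h to 8h, and Usp18 was also lost there without the libraries numbered 1 (0.124). Over 80h to 168h neither edgeR nor DESeq2 called Ifit3 (adjusted p = 0.287 and 0.337) or Usp18 (0.0563 and 0.0583), and both called Rsad2 lower (adjusted p = 0.0169 and 0.0197). Without the libraries numbered 1 no member was called by limma in that window (Ifit3 0.08, adjusted p = 0.889, and Usp18 0.51, adjusted p = 0.182), and without those numbered 3 Rsad2 was called lower (adjusted p = 0.0463). No fold is given for Rsad2 here, since its undifferentiated mean of 3.30 and its mean over this window both lay under 3 reads in a library.

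In GCSF, the neutrophil course, window calls against GCSF 0h appeared over 12h to 72h and were most over 80h to 168h. Whether they came later than in IL3 is not settled by the test of the difference between the courses. Over 1h to 8h that test called Ifit3 alone (adjusted p = 0.0483), a call lost under 8 of 14 other settings. Over 1h to 8h against GCSF 0h none of the 8 was called by limma, against 4.10% of all genes in either direction. Bst2 alone had an unadjusted p under 0.05, and neither edgeR nor DESeq2 called any of the 8. Over 12h to 72h Isg15 (1.06 ± 0.31), Ifit1 (1.18 ± 0.42) and Usp18 (1.11 ± 0.27) rose, 3 of 8 against 7.58%. The Isg15 call was lost without the libraries numbered 2 (0.77, adjusted p = 0.0990), and the Ifit1 call without those numbered 1 (adjusted p = 0.0619) or 3 (0.104). Over 80h to 168h 6 of 8 were called higher, against 11.3% of all genes, and none lower. Of these, Ifit1 rose by 2.42 ± 0.42 (adjusted p = 2.32e-07), Isg15 by 2.14 ± 0.31 (7.37e-10), Usp18 by 1.92 ± 0.27 (6.58e-10), Rsad2 by 1.81 ± 0.50 (0.00108), Oasl2 by 1.62 ± 0.44 (0.000855) and Stat2 by 0.69 ± 0.05 (1.09e-24) on the log2 scale. The median log2 fold change of the 8 members was 1.71, and that of all genes was -0.02. The folds of Rsad2 and Oasl2 are set against GCSF 0h means under 3 reads in a library and so depend on the pseudocount. Oasl2 reached the normalized count of 5 needed for testing only in GCSF-OHT libraries (highest IL3-OHT library 4.88). Its calls as higher in GCSF-OHT are therefore not independent of that filter. Ifit3 (0.52 ± 0.36, adjusted p = 0.240) and Bst2 (-0.40 ± 0.06) were not called. At the last time point, 168h against GCSF 0h, 7 members were called higher, Ifit3 among them at 1.56 ± 0.49 (adjusted p = 0.00492), where 12.1% of all genes were.

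**Figure D3:**
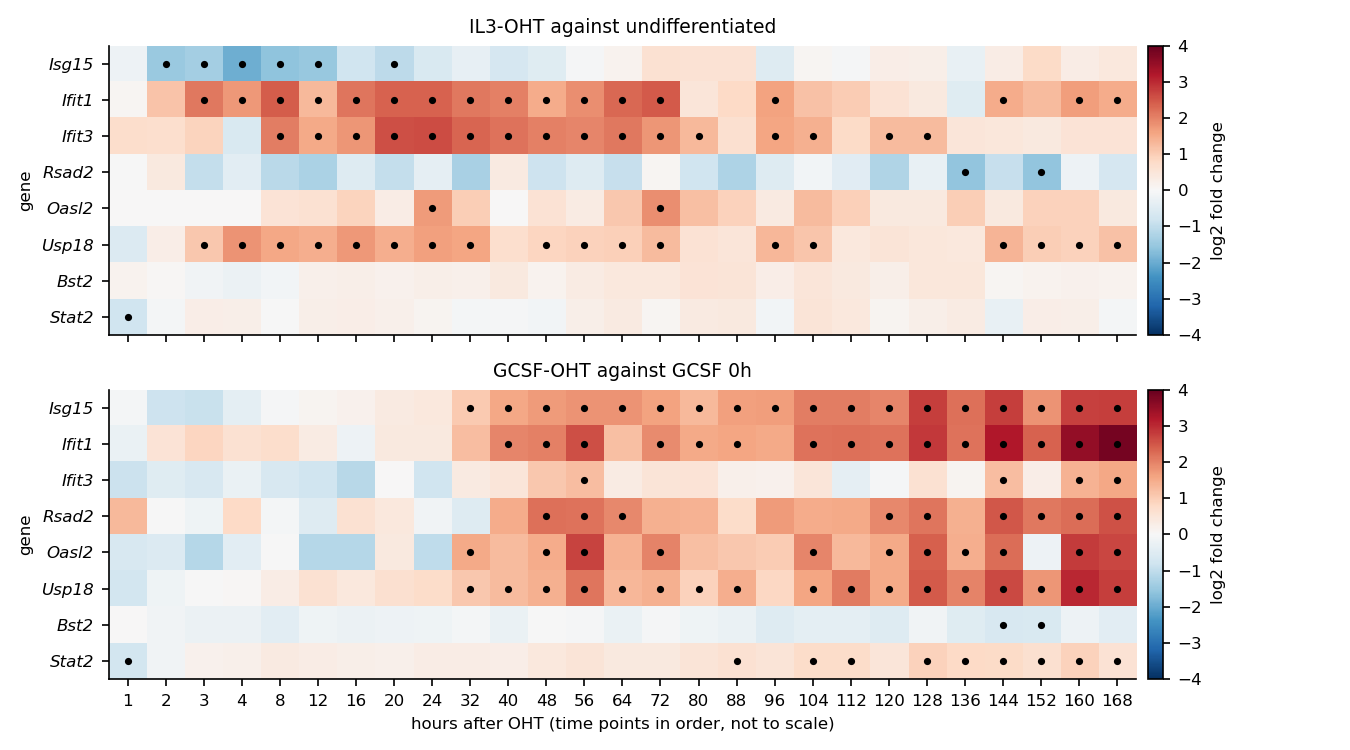
Log2 fold changes of the 8 genes (rows, colour scale from -4 to 4) are shown at each of 27 time points (columns, in order and not to scale), for IL3-OHT against undifferentiated cells above and GCSF-OHT against GCSF 0h below, with a dot where called. In IL3-OHT the dots of Ifit1, Ifit3 and Usp18 crowd between 3h and 72h, whereas in GCSF-OHT dots other than that of Stat2 at 1h begin at 32h. In GCSF-OHT 7 of the 8 genes are called higher at 144h, 160h and 168h, where 12.4%, 13.1% and 12.1% of all genes are. Bst2 is called lower at 144h, where 14.1% of all genes are.

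Stat2, the transcription factor subunit, dipped in the first hour in both cytokines. In IL3 the libraries went from 1057, 1069 and 897 to 558, 562 and 614 at 1h, without overlap, a log2 fold change of -0.80 ± 0.07 (adjusted p = 7.95e-19), and were back at 897, 1006 and 966 by 2h. In GCSF they went from 1203, 1259 and 1200.4 to 759.9, 686 and 755 at 1h (-0.74 ± 0.07, adjusted p = 2.83e-17). Stat2 was the only member called at 1h in either course, where 4.42% of all genes were called in IL3 and 6.06% in GCSF. Thereafter Stat2 lay higher in GCSF-OHT, with libraries between 1657.8 and 2565 over 80h to 168h against 893 to 1484 in IL3-OHT. These ranges did not overlap, and how many of all genes separated likewise was not counted. Stat2 was called higher against GCSF 0h at 9 of 27 time points, where 3.19% to 13.1% of all genes were. Against undifferentiated cells it was called higher at no time point of IL3-OHT, where 2.80% to 13.1% were. At IL3-OHT 144h Stat2 was lower than at 136h and 152h by a log2 difference of -0.58 ± 0.06 (adjusted p = 7.31e-16), and at 96h the difference from 88h and 104h was -0.57 ± 0.06, just inside the fold limit. In the first of these comparisons 1 of 8 members was called lower, against 6.76% of all genes. At 96h Isg15 was the called member (-0.84 ± 0.36, adjusted p = 0.0440), 1 of 8 against 8.17%. The Stat2 call was lost by edgeR, with upper-quartile scaling and without the libraries numbered 1, and the Isg15 call by edgeR and DESeq2, with upper-quartile scaling, without a filter on low values and without the libraries numbered 2 or 3. These are the groups that the study set aside.

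Isg15, the ubiquitin-like modifier, fell early in IL3 and rose later in GCSF. In IL3 it fell from 14.4, 14.3 and 11.8 to 5.59, 3.30 and 4.02 at 2h and to 3.48, 2.17 and 2.73 at 4h, all below the undifferentiated libraries. It was called lower at 6 time points between 2h and 20h, where 5.97% to 17.9% of all genes were, and at none later. At 168h the libraries held 26.1, 24.7 and 9.43, overlapping the start. In GCSF the libraries held 12.1, 19.1 and 19.8 at 24h, close to the 17.6, 7.97 and 13.0 of GCSF 0h. From 32h on Isg15 was called higher at each of the 18 remaining time points, where 6.64% to 13.1% of all genes were, and the 3 libraries of 168h held 78.7, 103.01 and 85.6, all above every IL3-OHT library, of which the highest held 32.6. Its difference between the courses in the change after OHT was 1.53 ± 0.43 over 12h to 72h (adjusted p = 0.00164) and 1.85 ± 0.43 over 80h to 168h (adjusted p = 0.000126) on the log2 scale. Over 12h to 72h it was 1 of 8 members with a larger change in GCSF, against 15.8% of all genes, and this call was lost without the libraries numbered 2 (1.13, adjusted p = 0.0712).

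Ifit1 had the largest log2 fold change of the 8 over 80h to 168h of GCSF-OHT. In IL3 it went from 3.93, 1.02 and 1.18 to 13.8, 13.9 and 14.3 at 8h, 43 reads in all against 5, a ratio of 7.25 (95% exact interval 2.88 to 23.4). It then dropped between 72h and 80h, from 27.3, 13.4 and 7.99 to 2.21, 7.55 and 1.2006 (-1.97 ± 0.57 on the log2 scale, adjusted p = 0.00468). In GCSF it held 22.7, 29.05 and 25.3 at 24h. The wells of 56h held 184.3, 106 and 87.9 and those of 168h held 188.9, 364 and 339, against 16.6, 20.4 and 20.503 at GCSF 0h. The ratio of summed reads of GCSF-OHT 168h to GCSF 0h was 15.3 (11.8 to 20.1). Over 80h to 168h every GCSF-OHT library (34.3 to 364, median 99.9) lay above every IL3-OHT library (0 to 17.5, median 4.84). How many of all genes separated in this way was not counted.

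Ifit3, whose product works in a complex with other IFIT proteins, was called with a larger gain in IL3 than in GCSF over 1h to 8h and 12h to 72h. In IL3 it was at 0, 1.08 and 1.82 at 4h and at 12.0, 10.7 and 8.57 at 8h, a step of 2.65 ± 0.49 on the log2 scale (adjusted p = 3.51e-06). The size of this step depends on the pseudocount, since the 4h level lay under 3 reads in a library. Ifit3 was called higher than in undifferentiated cells at 16 of 27 time points, where 2.80% to 13.1% of all genes were. It peaked at 24h with 14.9, 13.8 and 18.9, a ratio of reads of 5.84 (2.66 to 15.2), and was back at 4.75, 2.74 and 1.89 by 168h. In GCSF, where it had already risen before OHT, it was called at 56h, 144h, 160h and 168h alone. At these time points 8.65% to 13.1% of all genes were called higher. The 168h libraries held 45.3, 86.1 and 63.3. The change after OHT was smaller in GCSF than in IL3 over 1h to 8h (GCSF minus IL3 -1.33 ± 0.54 on the log2 scale, adjusted p = 0.0483, 1 of 8 members against 3.10% of all genes) and over 12h to 72h (-1.94 ± 0.52, adjusted p = 0.000794, 1 of 8 against 9.36%). The first of these calls was lost under 8 of the 14 other settings, among them edgeR (adjusted p = 0.303), DESeq2 (0.286) and the omission of any 1 replicate number, and the second without the libraries numbered 1 (-1.09, adjusted p = 0.126). Over 80h to 168h that difference was -0.34 ± 0.52 (adjusted p = 0.613). The undifferentiated mean of Ifit3 lay under 3 reads in a library, so the size of these differences depends on the pseudocount. Ifit3b, a close copy next to Ifit3 on chromosome 19, rose in GCSF-OHT over 80h to 168h by 1.14 ± 0.45 (adjusted p = 0.0254), and how reads were shared between the copies is not known.

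Rsad2 and Oasl2 were near the limit of detection for most of both courses. Of 81 IL3-OHT libraries, 73 had at most 3 reads of Rsad2 and 77 at most 3 of Oasl2, against 37 and 33 of 78 GCSF-OHT libraries. Rsad2 had 27 reads over the 3 libraries of GCSF-OHT 168h and 3 over those of GCSF 0h, a ratio of 10.0 (95% exact interval 3.08 to 51.6). Its normalized counts were 7.87, 10.4 and 9.41 against 0.924, 1.77 and 0, without overlap. It was called lower than in undifferentiated cells at IL3-OHT 136h and 152h, where every library had 0 and the undifferentiated mean of 3.30 lay under 3 reads in a library, so no fold is given. At these 2 time points 20.7% and 17.2% of all genes were called lower. Oasl2 stayed between 0 and 2.81 up to 24h of GCSF-OHT, and then went from 0, 0 and 1.37 at 24h to 7.26, 4.68 and 8.86 at 32h, a step of 2.54 ± 0.59 on the log2 scale (adjusted p = 0.0128) whose size depends on the pseudocount, since the 24h level lay under 3 reads in a library. No read was found in any library from 1h to 4h of IL3-OHT. At GCSF-OHT 168h it held 13.8, 26.1 and 12.0, which is at least 4.92-fold higher than in undifferentiated cells when 3 reads in each library are taken as the limit.

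Bst2, the most abundant member per kilobase in undifferentiated cells, was lower in GCSF-OHT than in IL3-OHT. In each of the 3 windows every GCSF-OHT library lay below every IL3-OHT library. Over 80h to 168h GCSF-OHT libraries held 291 to 482 (median 362) and IL3-OHT libraries 725 to 1157 (median 954). How many of all genes separated so fully was not counted, and a lower level of Bst2 was already seen at GCSF 0h. Bst2 was called lower in GCSF-OHT at 26 of 27 time points, where 5.89% to 19.6% of all genes were. Relative to GCSF 0h it was called lower at 144h and 152h alone (14.1% and 13.3% of all genes), and relative to undifferentiated cells at no IL3-OHT time point. The change after OHT over 80h to 168h differed between the courses by -0.75 ± 0.09 (GCSF minus IL3, adjusted p = 3.31e-13, 1 of 8 members against 10.4% of all genes), from log2 fold changes of -0.40 in GCSF and 0.35 in IL3 that did not themselves pass the fold limit.

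Usp18, the negative regulator, rose in both courses and was first called at 3h in IL3 and at 32h in GCSF. In IL3 it went from 9.16, 14.3 and 10.6 to 31.8, 19.5 and 24.8 at 3h and to 41.7, 45.5 and 37.3 at 4h, which was its highest mean there (41.5 ± 4.12, SD, n = 3). It was called higher at 18 of 27 time points, where 2.80% to 13.1% of all genes were. In GCSF it held 14.8, 22.1 and 23.3 at 0h and 20.6, 30.4 and 13.6 at 4h, without a call. The change after OHT did not pass the test of a difference between the courses over 1h to 8h (GCSF minus IL3 -0.95 ± 0.40, adjusted p = 0.0598) or over 12h to 72h (-0.15 ± 0.39, adjusted p = 0.782). At 4h the level in GCSF-OHT was lower than in IL3-OHT by a log2 difference of -0.98 ± 0.37 (adjusted p = 0.0193). In contrast, Usp18 was called higher in GCSF-OHT at 16 of 27 time points, where 5.02% to 16.0% of all genes were. The highest mean in GCSF-OHT was 174.8 ± 64.9 (SD, n = 3) at 160h, where the wells ran from 101.7 to 226.

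Set side by side over the 25 time points that both courses kept, 6 of the 8 genes were higher in GCSF-OHT (9.33% of all genes were) and Bst2 was lower (15.1%). The log2 difference was 2.94 ± 0.11 for Ifit1, 1.79 ± 0.10 for Ifit3, 1.59 ± 0.12 for Oasl2, 1.40 ± 0.08 for Isg15, 1.01 ± 0.14 for Rsad2 and 1.01 ± 0.07 for Usp18, and -1.06 ± 0.02 for Bst2. With a pseudocount of 5 the difference of Rsad2, the sparsest of them, was 0.45 and within the fold limit. Oasl2 passed the filter for testing only through GCSF-OHT libraries, so its direction here is not independent of that filter. Stat2 was higher in GCSF-OHT by 0.54 ± 0.01 (adjusted p = 8.82e-68), within the fold limit. Part of these differences was present before OHT. At GCSF 0h Ifit1 and Ifit3 had been called higher than in undifferentiated cells and Bst2 stood at -0.57 on the log2 scale, while the call of Oasl2 rested on 6 reads. When the change after OHT was compared instead, Isg15, Ifit1, Rsad2 and Usp18 rose more in GCSF over 80h to 168h (1.85 ± 0.43, 1.59 ± 0.59, 2.61 ± 0.71 and 1.21 ± 0.39 on the log2 scale, adjusted p = 0.000126, 0.0188, 0.000975 and 0.00521), 4 of 8 members against 16.2% of all genes. For Oasl2 the difference was 0.78 ± 0.62 (adjusted p = 0.304). The undifferentiated means of Ifit1 and Rsad2 lay under 3 reads in a library, so the size of their differences depends on the pseudocount. The Ifit1 difference was not called by edgeR (1.27, adjusted p = 0.469) or DESeq2 (1.29, adjusted p = 0.185), nor without the libraries numbered 1 (adjusted p = 0.117) or 3 (0.0625), and that of Usp18 was lost without those numbered 2 (1.00, adjusted p = 0.0965).

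Late in GCSF-OHT most members went up or down together in some of the steps from one time point to the next. Ifit1 had means of 158.2, 93.9, 204.6, 103.3, 243 and 297 at 128h, 136h, 144h, 152h, 160h and 168h, and Usp18 means of 123.1, 84.6, 132, 69.9, 174.8 and 141.1. From 120h to 128h all 8 members had a positive log2 difference, from 128h to 136h none had, from 144h to 152h 1 had and from 152h to 160h all 8 had again. The other steps after 104h were mixed. The steps ending at 112h and 120h had a positive difference in 3 members each, that ending at 144h in 6 and that ending at 168h in 4. Single steps were mostly within the spread between wells. Of these, Oasl2 was called from 144h to 152h (-2.43 ± 0.66, adjusted p = 0.0162) and from 152h to 160h (3.00 ± 0.66, adjusted p = 0.00602). It was 1 of 8 members in each step, against 0.728% and 0.224% of all genes in either direction. The Oasl2 libraries of 144h held 7.25, 17.4 and 12.9, those of 152h held 4.64 and 0, and those of 160h held 19.7, 27.2 and 10.8. The 152h mean lay under 3 reads in a library, so the size of both steps depends on the pseudocount. Fresh medium and OHT were given at 136h, and the 120h libraries carry another library name prefix than those of 112h and 128h. The part of feeding, of the plate or of this prefix in these swings was not tested.

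**Figure D4:**
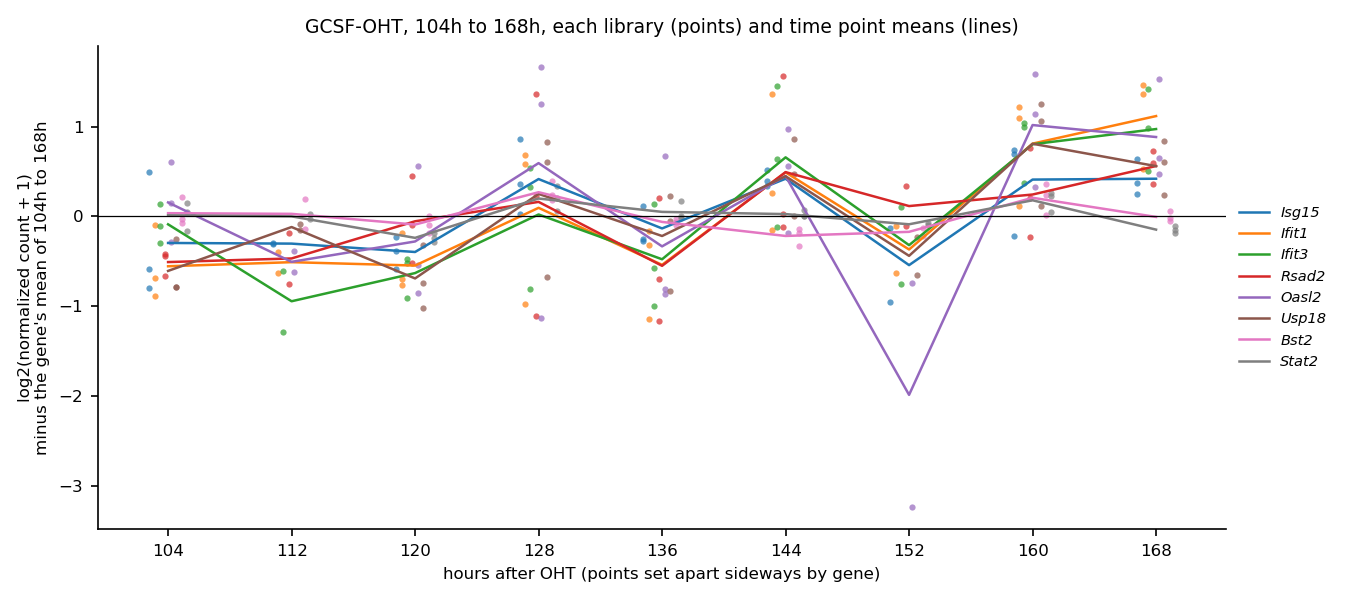
The log2 of the normalized count plus 1, minus each gene's own mean over 104h to 168h (vertical axis), is plotted for each GCSF-OHT library (points) and time point mean (lines) against hours after OHT. The lines of 7 of the 8 genes fall from 144h to 152h and all 8 rise from 152h to 160h, by at most 3.00 (Oasl2), while wells of 1 time point can lie over 2 log2 units apart.

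Wells of 1 time point also varied together. Among Isg15, Ifit1, Ifit3, Rsad2, Oasl2 and Usp18, the correlation of deviations from the time point mean over the 78 GCSF-OHT libraries had a median of 0.41 over the 15 pairs (range 0.05 to 0.69), and over the 81 IL3-OHT libraries of 0.15 (-0.13 to 0.37). The 6 pairs of Stat2 with these genes had a median of 0.46 in GCSF-OHT and 0.17 in IL3-OHT. Pairs of genes other than the members were not examined. At GCSF-OHT 32h, for example, the well numbered 3 held 122.1 of Ifit1, 44.3 of Isg15 and 66.0 of Usp18, against 34.99, 25.7 and 40.9 in well 1 and 22.6, 16.4 and 28.9 in well 2. In wells 1, 2 and 3, Ifit3 held 14.5, 27.3 and 48.3, Oasl2 7.26, 4.68 and 8.86, and Rsad2 0, 0.781 and 0. Across the 27 time point means the same pairs had a median correlation of 0.84 in GCSF-OHT and of 0.13 in IL3-OHT. The points of each correlation share libraries and normalization, and counts are lower in IL3-OHT. Bst2 was negatively correlated with the other 7 over all 56 group means (r from -0.85 to -0.56), a value that includes the gap between the courses. Over the GCSF-OHT means its r ran from -0.49 to -0.10 and over the IL3-OHT means from -0.36 to 0.66, and between wells of 1 time point from 0.076 to 0.44 in GCSF-OHT and from -0.031 to 0.26 in IL3-OHT.

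The genes whose means over the 56 groups were most like the average of the members were, in order of Pearson's r, Xaf1 (0.94), Saa3 (0.93), Ifitm6 (0.92), Irf7 (0.92), C4b (0.92), Zbp1 (0.91), Oas1b (0.91), Slc28a2 (0.90), Med22 (0.90) and Cacna1d (0.90), out of 12293 genes with a mean of at least 10. Of these, Xaf1, Irf7, Zbp1 and Oas1b were on the lists of interferon genes used here. Within GCSF-OHT alone (27 means), Irf7 came first (0.94), followed by Xaf1 and Oas1b (both 0.93). Within IL3-OHT alone the closest gene was Acot8 (0.85), and the members themselves had an r of only 0.14 (Rsad2) to 0.77 (Oasl2) with their average. The average includes Bst2, which ran against it over the 56 groups (-0.65) and within GCSF-OHT (-0.19). The other members had 0.80 to 0.95 over the 56 groups and 0.76 to 0.94 within GCSF-OHT.

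Ligands were at the edge of detection. Of 19 interferon genes of types I, II and III, 10 had no read in any library, 17 had at most 3 reads in every library, and the most reads of any of them in a library was 7, of Ifnz. Ifnb1, the interferon beta gene, had 14 reads over all libraries. Among 9 receptor and Janus kinase genes, 4 were called higher over 80h to 168h of GCSF-OHT, where 11.3% of all genes were, and none lower, where 12.0% were, with the interferon gamma receptor chain Ifngr2 at 1.97 ± 0.05 and the type I receptor chain Ifnar1 at 0.78 ± 0.03 on the log2 scale. In IL3-OHT over the same window 2 were higher and none lower, where 11.6% and 19.5% of all genes were.

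Among the 8 other STAT and IRF genes, Irf7, which amplifies interferon production and is itself induced by interferon, moved most like the members. Its normalized count was 58.5 ± 10.46 (SD, n = 3) at GCSF 0h and 463 ± 136.7 at its highest mean, at 160h, and over 80h to 168h it rose by 2.13 ± 0.18 on the log2 scale in GCSF-OHT (adjusted p = 4.29e-20). In IL3-OHT it was lower over 1h to 8h (-0.97 ± 0.19) and stood at -0.01 ± 0.19 over 80h to 168h. Irf9, the DNA-binding subunit of the STAT complex, rose in GCSF-OHT over that window (0.92 ± 0.08) and had -0.36 ± 0.08 in IL3-OHT. In that window 3 of the 8 were higher in each course (11.3% of all genes in GCSF-OHT and 11.6% in IL3-OHT) and none lower.

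Of 12 sensors and adaptors, 3 were called higher over 80h to 168h of GCSF-OHT, the nucleic acid sensor Zbp1 (2.06 ± 0.15) and the RNA helicases Ddx58 (1.08 ± 0.07) and Dhx58 (0.70 ± 0.08), and none lower (11.3% and 12.0% of all genes). In IL3-OHT 4 were higher and 1 lower (11.6% and 19.5% of all genes), and there Ddx58 (1.61 ± 0.07) and Dhx58 (1.66 ± 0.09) rose by more. Of the 4 genes that attach ISG15 to proteins, 2 were higher in GCSF-OHT (11.3% of all genes), the conjugating enzyme Ube2l6 (0.92 ± 0.25) and the ligase Trim25 (1.02 ± 0.03), whereas the activating enzyme Uba7 had 0.02 ± 0.08 in GCSF-OHT and rose by 0.95 ± 0.08 in IL3-OHT. Of 7 inhibitors, the phosphatase Ptpn6 and the nucleotide hydrolase Samhd1 rose in both courses (1.52 ± 0.05 and 2.11 ± 0.07 in GCSF-OHT, 1.28 ± 0.05 and 2.25 ± 0.07 in IL3-OHT), and Socs3, a suppressor of cytokine signalling, fell in IL3-OHT (-1.01 ± 0.06). Socs1, of the same family, was lower in GCSF 0h than in undifferentiated cells by -3.71 ± 0.18 (adjusted p = 3.49e-40).

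Of 50 other type I effectors, 48 were tested, and over 80h to 168h 22 were higher and 1 lower in GCSF-OHT, where 11.3% and 12.0% of all genes were. In IL3-OHT 7 were higher and 7 lower, where 11.6% and 19.5% of all genes were. The median log2 fold change of the list was 0.55 in GCSF-OHT and -0.0046 in IL3-OHT. In GCSF-OHT the largest were the oligoadenylate synthetase genes Oas3 (3.20 ± 0.50) and Oasl1 (3.15 ± 0.43) and Samd9l (2.57 ± 0.09), and the 1 lower gene was Nmi. In IL3-OHT the largest were lower, Cmpk2 (-2.49 ± 0.48), Nmi (-2.24 ± 0.09) and Phf11d (-1.96 ± 0.46). The list also moved earlier. At GCSF 0h against undifferentiated cells 20 were higher, where 13.0% of all genes were, and 5 lower. The share of all genes called lower there is not given here, so the 5 cannot be set against it. Over 12h to 72h 14 were higher and 8 lower in IL3-OHT, and 12 higher and 2 lower in GCSF-OHT. In that window 11.4% of all genes were higher in IL3-OHT and 7.58% in GCSF-OHT. At single time points of the whole courses, 1.62% to 20.7% of all genes were called lower in IL3-OHT and 1.87% to 14.1% in GCSF-OHT. Ifit2, a close relative of Ifit1 and Ifit3, was like them higher at GCSF 0h than in undifferentiated cells, at a normalized count of 1136 ± 97.5 against 228 ± 46.8 (SD, n = 3). It was 1210.1 ± 39.5 at GCSF-OHT 168h and was not called over 80h to 168h (0.21 ± 0.07 on the log2 scale). In IL3-OHT Ifit2 had its highest mean at 32h (781 ± 43.4) and stood at 292 ± 3.44 at 168h. Ifit2, Ifit3b and the ISG15-attaching genes were picked out after their values had been seen. Of 17 genes more typical of interferon gamma, 15 were tested. Over 80h to 168h 2 of these were higher and 2 lower in GCSF-OHT, close to the 11.3% and 12.0% of all genes. There the guanylate-binding protein gene Gbp2 was higher (1.39 ± 0.14) and the class II transactivator gene Ciita lower (-1.71 ± 0.44), while in IL3-OHT Gbp2 was lower (-1.05 ± 0.14).

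**Figure D5:**
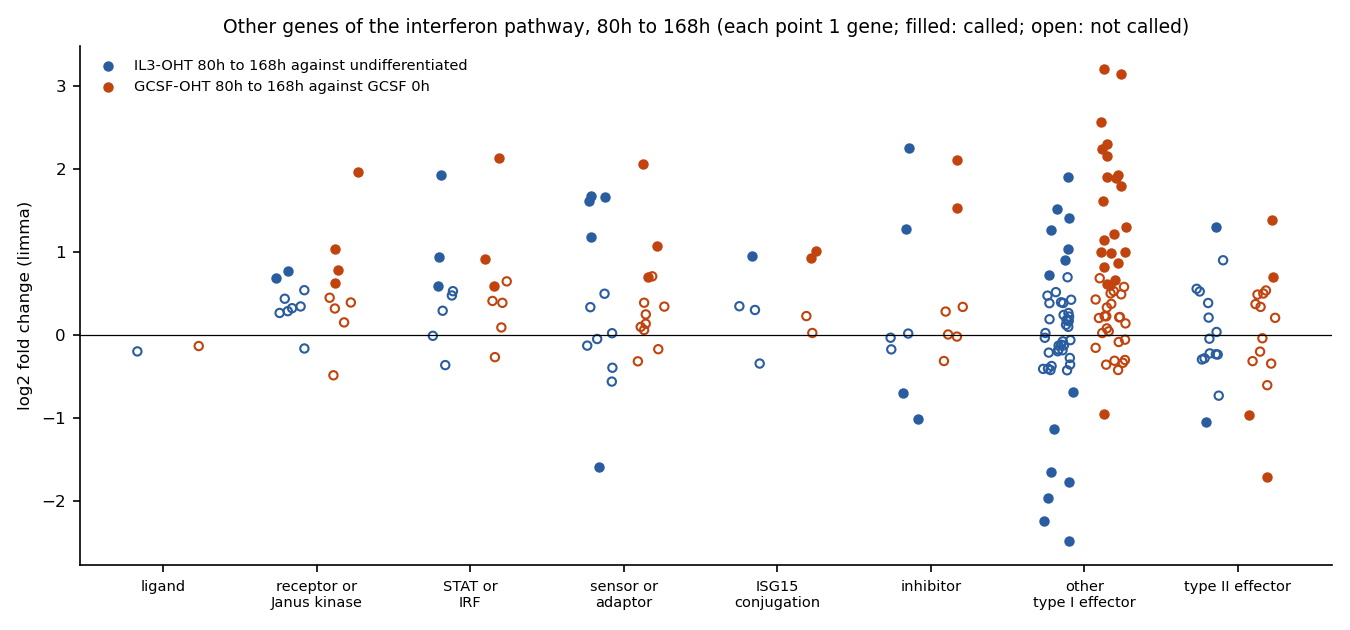
Each point is the log2 fold change over 80h to 168h (vertical axis) of 1 other gene of the interferon pathway, grouped by role (horizontal axis), in IL3-OHT against undifferentiated cells (blue) and GCSF-OHT against GCSF 0h (red), filled where called. The filled red points of the other type I effectors lie above 0 for 22 genes and below for 1, while the filled blue points are split 7 and 7.

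Markers of plasmacytoid dendritic cells and of lymphocytes were low in both courses. Of 4 markers of plasmacytoid dendritic cells, the main source of type I interferon in the body, Siglech and Klk1 had at most 3 reads in every library of all groups, and the sum of the 4 ran from 3.04 to 38.9 normalized counts in GCSF-OHT and from 0 to 18.4 in IL3-OHT. Of 4 lymphocyte markers, Cd3e and Cd3g had at most 3 reads in every library, and the list summed to 2.84 to 15.7 in GCSF-OHT and to 0 to 21.5 in IL3-OHT. The sums of 5 macrophage markers were 13.97 to 531 in GCSF-OHT and 15.9 to 491 in IL3-OHT, against 18.4 to 23.6 in undifferentiated cells. Their part in the results was not tested.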

How the data were processed

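PUER cells were sequenced in 165 libraries of 56 groups, taken from the labels. The authors mapped reads with Salmon against GRCm38, scaled them by the median of ratios in DESeq2, and deposited 1 signal value per gene and library, a normalized count. The step from transcripts to genes is not given in the sources used here. Here log2(normalized count + 1) of the 17439 genes that reached a normalized count of 5 in 1 library or more was fitted with limma 3.58.1 (all groups sharing 1 trended spread), with contrasts as described and Benjamini-Hochberg adjustment over all tested genes, two-sided. Calls needed an adjusted p under 0.05 and a log2 fold change over 0.58. Since the values are no raw counts, edgeR 4.0.16 and DESeq2 1.42.0 were run on whole reads recovered from the steps between low values, as alternatives. On simulated data (GCSF-OHT 80h to 168h against GCSF 0h, 15658 genes) limma recovered 98 of 100 genes changed by a log2 of 1 and 100 of 100 changed by a log2 of 2, with 5 false calls. Libraries held 14600246 to 33147945 reads on genes, and intervals and the limit of 3 reads cover counting error only. No 2 replicates agreed within sampling noise.

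All 8 members were named in every comparison. Of the other interferon genes, the 3 called genes with the largest change in each list and comparison could be named, and Irf9 and Irf7 always, while some genes of the lists are not reported here; similar genes were the 10 with the highest Pearson's r. The members and lists were chosen with earlier results of these data known. Differences between successive time points, GCSF-OHT 168h against GCSF 0h, the courses at each time point, and the fit without the 120h libraries were added after seeing the data. Alternatives were other pseudocounts, filters and scaling, leaving out each replicate number, a replicate block and other sets of groups.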

Additional observations from a re-analysis of the deposited data

Results flagged for a closer look

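A difference between IL3 and GCSF in the change after OHT, tested as an interaction in limma across all genes, was called for the following genes. Values are GCSF minus IL3 on the log2 scale, and the cause was not tested for any of them.

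Ifit3 had -1.33 over 1h to 8h and -1.94 over 12h to 72h (log2 changes of 0.74 and 2.08 in IL3, and of -0.58 and 0.13 in GCSF). The adjusted p of the former was 0.0483 and ranged from 0.0361 to 0.546 over the other settings. The value of the latter ranged from -2.60 to -0.99. The Ifit3 mean in undifferentiated cells lay under 3 reads in a library, so the size of both differences depends on the pseudocount. Isg15 had 1.53 over 12h to 72h and 1.85 over 80h to 168h, and the latter was called under every setting tried (1.46 to 2.06).

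Over 80h to 168h, Rsad2 had 2.61 and Bst2 -0.75, called under every setting that tested them (1.21 to 4.60 for Rsad2, -0.83 to -0.69 for Bst2). Usp18 had 1.21, which was called under every setting except without the libraries numbered 2. Ifit1 had 1.59, which edgeR, DESeq2 and the omission of replicate 1 or 3 did not call. The Ifit1 mean in undifferentiated cells lay under 3 reads in a library, so the size of this difference also depends on the pseudocount. Rsad2 had at most 3 reads in 73 of 81 IL3-OHT libraries, and its means in undifferentiated cells and at GCSF 0h lay under 3 reads in a library, so the size of its difference depends on the pseudocount.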

How the results depend on the processing

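Over 14 other settings, 244 of 292 recomputed counts of called members stayed within 1.5 times the main count and 48 did not, and of 1210 recomputed fold changes of single members 1143 kept their direction and call, 38 lost a call, 15 gained one and 14 changed sign or fell to 0. The count over GCSF-OHT 80h to 168h was 6 under every setting except a mean normalized count of at least 10, which removed Rsad2 and Oasl2 from testing and left 4. The cause of the changes below was not tested, except that dropping libraries leaves fewer samples. Contrasts of IL3-OHT 96h and 144h could not be fitted without these groups.

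Against undifferentiated cells, edgeR called 1 member over IL3-OHT 1h to 8h (main 3). Over IL3-OHT 80h to 168h (main 2), a pseudocount of 5 gave 0, and no filter, upper-quartile scaling, a fit of only the groups compared, edgeR and DESeq2 gave 1 each. At IL3-OHT 168h (main 2), a pseudocount of 5, the fit of only the groups compared and edgeR gave 1. The fit of only the groups compared called 39 pairs of member and time point in IL3-OHT (main 62). For GCSF minus IL3 over 1h to 8h (main 1), a pseudocount of 5, no filter, edgeR, DESeq2 and the fit without the 120h libraries, added after seeing the data, gave 0, the mean filter 2 and the fit of only the groups compared 3. For IL3-OHT 96h against 88h and 104h (main 1), no filter, upper-quartile scaling and DESeq2 gave 0. For IL3-OHT 144h against 136h and 152h (main 1), edgeR gave 0, and a pseudocount of 0.5, the mean filter, DESeq2 and the fit without 120h gave 2. For GCSF-OHT 144h against 136h and 152h (main 1), a pseudocount of 0.5, the mean filter and the fit of only the groups compared gave 0, and a pseudocount of 5 and edgeR gave 2.

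Leaving out 1 replicate number gave 0 to 3 members for IL3-OHT 80h to 168h, 0 to 0 and 1 to 3 for GCSF minus IL3 over 1h to 8h and 12h to 72h, 0 to 2 for IL3-OHT 168h, 0 to 1 for IL3-OHT 96h, 0 to 2 for IL3-OHT 144h, 0 to 0 for GCSF-OHT 144h, and 38 to 58 pairs in IL3-OHT. Among uncalled log2 changes that crossed 0 on doing so, Isg15 at GCSF 0h ranged from -0.32 to 0.20, Rsad2 over IL3-OHT 1h to 8h from -0.90 to 0.23 and over 12h to 72h from -1.47 to 0.35, Oasl2 over IL3-OHT 1h to 8h from 0.00 to 0.17, and over GCSF-OHT 1h to 8h Rsad2 from -0.038 to 0.68, Usp18 from -0.35 to 0.072 and Stat2 from -0.048 to 0.0035. For GCSF minus IL3, Stat2 over 1h to 8h ranged from -0.025 to 0.11, Oasl2 over 12h to 72h from -0.30 to 0.13 and Ifit3 over 80h to 168h from -0.91 to 0.58. With a pseudocount of 5, Oasl2 over 12h to 72h was 0.25 and Ifit3 over 80h to 168h 0.096, and Oasl2 over 80h to 168h was -1.07 by edgeR and -0.0067 by DESeq2.

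Replicate numbers did not pair the libraries: deviations of same-numbered libraries had a mean correlation of -4.93e-05, and 9.36% of these pairs exceeded 0.1. A replicate block left 6 members called over GCSF-OHT 80h to 168h and changed no call.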
